A study of Mus musculus with 43 samples.

Results

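The cytosolic ribosomal proteins are the protein subunits of the ribosome that translates nuclear mRNAs. Their genes were taken by name from 3 expression tables of mouse oocytes and embryos: every symbol of the form Rpl or Rps followed by a number and at most 1 letter, plus Rplp0, Rplp1, Rplp2 and Rpsa, with pseudogenes left out. The rule found 82 genes, 50 of the large and 32 of the small subunit, among 35815 gene symbols in the PRC1 catalytic-dead table and 35842 in each of the knockout oocyte and morula tables. It used no measured value. It leaves out some true subunits whose names differ, such as Rack1, Fau and Rps3a1, which are given apart below.

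The study measured polyA RNA in 43 libraries made with SMART-Seq v4, a full-length cDNA method for very small samples. It concerned Polycomb repressive complex 1 (PRC1), which ubiquitylates histone H2A at lysine 119, the PRC1 subunits PCGF1 and PCGF6, and the histone H3 lysine 4 methyltransferase MLL2 (gene Kmt2b). The design allows comparisons of mutant against wild-type oocytes in each of 2 sets, of mutants with each other, and of embryos from mutant and wild-type mothers. All oocytes were full-grown oocytes from the ovary. The first oocyte set held 2 wild-type libraries (PRC1-WT) and 2 libraries with catalytically dead PRC1 (PRC1-CD), each from 10 pooled oocytes. The second held 3 wild-type libraries (WT), 3 with a double knockout of Pcgf1 and Pcgf6 (DKO) and 3 with a triple knockout of Pcgf1, Pcgf6 and Mll2 (TKO). The morula set held 10 wild-type libraries, 10 with the maternal Pcgf1/6 double knockout (matDKO) and 10 with the maternal Pcgf1/6 and Mll2 triple knockout (matTKO), so the paternal copies in these embryos were intact as far as the word maternal says. The Cre driver, the exact PRC1 mutation, the strain, the mothers' age and the number of oocytes or embryos per library outside the PRC1 set are not given in the sources used here. The title and stage of the second PRC1-CD library name an oocyte while its tissue entry names an embryo; it was kept as an oocyte. Nothing states that libraries of a group came from different animals, so the p-values measure the spread between these libraries, which may be technical.

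A ribosome needs 1 copy of nearly every one of these proteins, and the genes are therefore usually expressed together and at high levels. Most of their mRNAs start with a run of pyrimidines, the terminal oligopyrimidine (TOP) tract, through which mTOR and LARP1 control their translation. A growing mouse oocyte stores ribosomes and mRNAs, stops transcription when full-grown, and leaves both to the embryo, which starts to make its own ribosomal protein mRNAs after its genome is activated. Several members have a paralog with restricted use, such as Rpl39l and Rpl10l of male germ cells and Rpl3l of muscle.

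Values of the oocyte tables are RPKM (reads per kilobase of transcript, scaled to library size), and those of the morula table sum to nearly the same total in each library and were taken as TPM (transcript abundance scaled to a fixed library total). Levels are therefore compared within a table only. The column totals were 622628 to 670409 in the first oocyte table, 658853 to 686687 in the second and 999421 to 999922 in the morula table. Between 10902 and 13086 genes reached a value of 1 per library, and the read depth is unknown. In the second oocyte set Pcgf1 was at 1077 to 1153 RPKM in WT, 10.6 to 13.4 in DKO and 10.7 to 13.7 in TKO. Pcgf6 was at 148 to 159, 55.1 to 60.3 and 61.9 to 81.6 RPKM in the same order. Kmt2b was at 4.43 to 5.16 RPKM in WT, 3.58 to 4.21 in DKO and 1.04 to 1.31 in TKO. Each deleted gene was thus lower in the libraries labelled as its knockout, and the level that remained differed between genes. In the morulae, which can transcribe the paternal copies, Pcgf1 was at 17.3 to 33.2 TPM in wild type, 5.23 to 15.6 in matDKO and 6.95 to 26.9 in matTKO, and Pcgf6 and Kmt2b overlapped between all groups. For the catalytic mutation of PRC1 no such check was made. The summed level of 8 oocyte markers (Zp3, Gdf9 and others) was 9846 to 11128 in WT, 8463 to 9546 in DKO and 9463 to 11268 in TKO. In the morulae, all 5 inner-cell markers and 5 of 6 trophectoderm markers were at 1 or more.

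The members held 3.70 to 3.86% of the summed values in WT oocytes, with a median of 3.85%. In DKO they held 3.76 to 3.90%, and in TKO 4.86 to 5.07%, with a median of 4.96%. The 3 TKO libraries stood above the 6 others, and the DKO range overlapped that of WT. In the first oocyte set the share was 3.10 and 3.63% in PRC1-WT and 3.23 and 3.78% in PRC1-CD, so the 2 groups overlapped. In morulae the members held 14.6 to 19.8% (median 17.1) in wild type, 15.0 to 23.4% (median 17.0) in matDKO and 13.8 to 20.4% (median 16.5) in matTKO, and the 3 groups overlapped. Replicates 8 and 9 of both knockout groups were the highest, at 22.7 and 23.4% in matDKO and at 20.3 and 20.4% in matTKO. Without them the medians were 16.2% and 16.4%. The summed level of 6 trophectoderm markers, the genes of the outer cells, was 873 to 3750 TPM in wild type, 150 to 2356 in matDKO and 265 to 2292 in matTKO, and 5 of the 6 reached 1 as a mean in each group. It was 513 and 150 TPM in replicates 8 and 9 of matDKO and 265 and 844 in those of matTKO. Replicate 9 of wild type had the highest share of its group (19.8%) and its lowest marker sum (873), while replicates 6 and 7 of matDKO had low sums (629 and 769) at shares of 17.5 and 15.0%. The part of these markers in the shares was not tested. All values are shares of a library, so more ribosomal protein mRNA and less of other RNA per oocyte cannot be told apart.

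**Figure D1:**
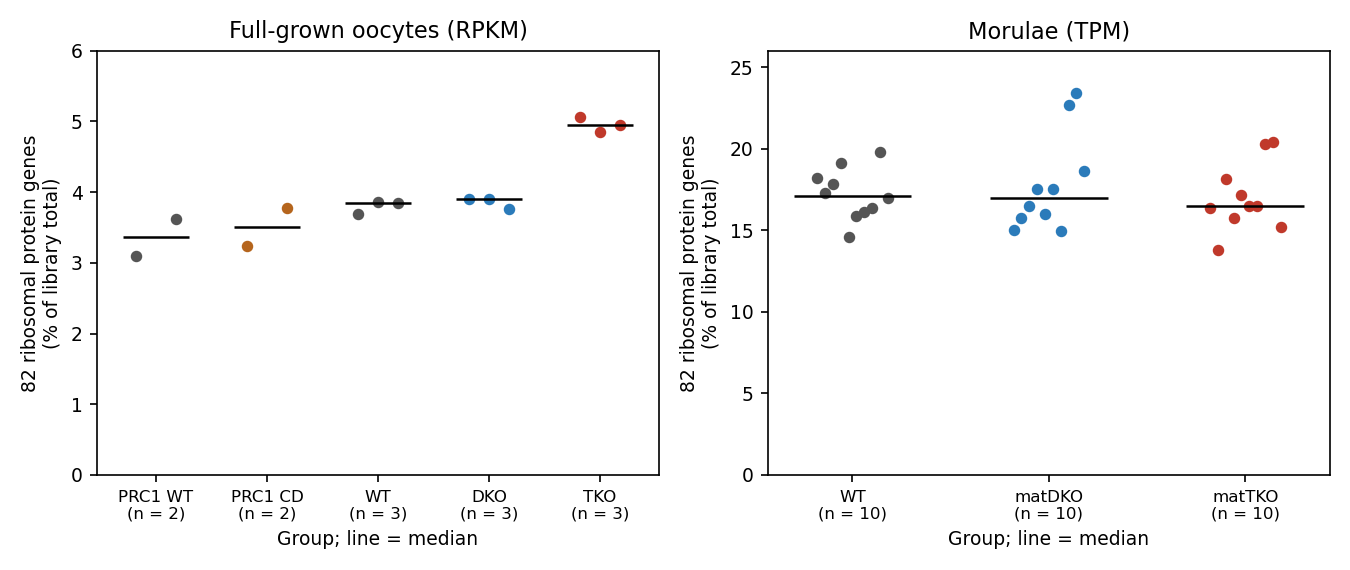
Share of the summed values of each library held by the 82 ribosomal protein genes (vertical axis, percent) by group, 1 point per library, with lines at the medians and with oocyte (RPKM) and morula (TPM) tables in separate panels. The 3 TKO libraries lie between 4.86 and 5.07%, above all WT and DKO libraries, while the 3 morula groups overlap.

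Of the 82 members, 81 were tested in each table; Rpl3l, the muscle copy of Rpl3, was at or near 0 everywhere and did not pass the minimum group mean of 1. The tests used limma on log2(value + 1) over all genes of a table, with Benjamini-Hochberg adjustment, and a gene is called at an adjusted p below 0.05. Changes below are log2 differences on that scale, with the standard error of the fit, and those of low genes are understated by it.

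In TKO oocytes most ribosomal protein genes were higher than in WT. The count was 61 higher and 5 lower of 81, against 31.2% higher and 20.1% lower among all 12873 genes tested, so 75.3% of the members rose. Their median change was 0.49, with quartiles of 0.28 and 0.66, and that of all genes was 0.09, with quartiles of -0.23 and 0.41. Both subunits took part: 37 of 49 tested genes of the large subunit rose and 4 fell (median 0.46), and 24 of 32 of the small subunit rose and 1 fell (median 0.51). In 62 members every TKO library was above every WT library, and in 5 every TKO library was below, against 36.1% and 23.5% of all genes. The total of 66 called members was between 63 and 69 under all alternatives of the processing. Mitochondrially encoded transcripts also took a higher share of TKO libraries, at 1.58 to 2.38% against 0.897 to 1.07% in WT and 0.724 to 0.885% in DKO. With these transcripts removed from the totals, the members held 4.97 to 5.16% in TKO and 3.73 to 3.89% in WT.

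Markers of granulosa cells, the somatic cells around the oocyte, were summed over 11 genes. The sums were 22.5 to 26.8 RPKM in TKO, 24.3 to 27.7 in WT and 17.7 to 18.7 in DKO. A group mean of at least 1 was reached by 2 of the 11 in TKO and in WT and by 3 in DKO. Amh and Foxl2, which define these cells, were at 0 to 0.05 RPKM in all libraries of the second oocyte set, Vim was at most 0.16 and Krt18 at most 0.10. Fshr was at 4.86 to 7.18 RPKM in TKO and 0.35 to 0.61 in WT, and Cyp19a1 at 15.3 to 16.8 in TKO and 22.1 to 25.6 in WT, so these markers moved in opposite directions. Their part in the member changes was not tested.

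Among the members with the largest rise in TKO, Rpl13a, a large-subunit protein, was at 69.2, 79.1 and 74.9 RPKM in WT, 72.5, 72.8 and 58.9 in DKO and 202, 166 and 178 in TKO. The TKO libraries were the highest of the set, and DKO overlapped WT. The change in TKO was 1.28 ± 0.10 (limma adjusted p = 9.261e-06). Rps16, a protein of the small-subunit head, was at 265, 276 and 264 RPKM in WT, 319, 319 and 337 in DKO and 539, 526 and 546 in TKO, so that the 3 groups did not overlap. It rose by 0.997 ± 0.05 in TKO (limma adjusted p = 5.092e-07) and by 0.27 ± 0.05 in DKO (limma adjusted p = 0.00279). Rpl10a, of the mobile stalk beside the exit site of tRNA, was at 67.2, 75.5 and 74.99 RPKM in WT and at 146, 146 and 153 in TKO. It rose by 1.02 ± 0.07 (limma adjusted p = 2.793e-06). Rpl27a, a large-subunit protein, rose by 1.01 ± 0.09 in TKO, from 33.8, 37.5 and 36.0 to 77.3, 73.5 and 67.7 RPKM, and Rps2, at the entry of the mRNA channel, rose by 0.97 ± 0.10. Rpl8, near the peptidyl transferase centre, and Rpsa, also known as the laminin receptor precursor, rose by 0.95 and 0.94. In these genes no TKO library overlapped a WT library.

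The promoter starts of these 5 leading genes are shown because ribosomal protein promoters are known for a pyrimidine tract at the transcription start. Each run covers 20 bases before and 10 after the start in RefSeq on GRCm38.p6, read on the gene's strand, and capitals mark a match to CTTTT or CTTTC from 5 bases before to 10 after the start.
Rpl13a, chr7:45128736-45128765, minus strand: gataagaaaccctgcgacaagacctcctcc
Rpl10a, chr17:28328451-28328480, plus strand: gcgtggtggcgcccccccagcggccgcaaa
Rpl27a, chr7:109519175-109519204, plus strand: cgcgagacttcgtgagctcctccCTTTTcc
Rps16, chr7:28350669-28350698, plus strand: taaagcccgcttctgtcgtgacgtagcact
Rps2, chr17:24720043-24720072, plus strand: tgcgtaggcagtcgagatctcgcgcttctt
Of the 5, Rpl27a alone held a match. Promoters were found for 61 of the 82 members, 73 promoters in all, and 13 of these (17.8%) held CTTTT or CTTTC on the sense strand in that window, against 2.99% of 32851 promoters of all genes. Over 250 bases before to 50 after the start, on both strands, CCGGAAG, the letters of an ETS-family site, were found in 26 of the 73 (35.6%) and in 8.86% of all promoters. GCCATNTT, the letters of a YY1 site, were found in 15 (20.5%) and in 6.05% of all. CACGTG, an E-box, was in 8 (10.96%, and 7.15% of all), GCGGGAA, an E2F letter string, in 7 (9.59%, and 4.5996% of all), and TATAAA in 7 (9.59%, and 13.6% of all). These are letter matches and not measured sites.

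The acidic stalk recruits translation factors to the large subunit, and its 3 genes all rose in TKO. Rplp0, which anchors it, was at 273, 310 and 279 RPKM in WT, 370, 373 and 395 in DKO and 475, 451 and 440 in TKO. The 3 groups did not overlap, and its change was 0.66 ± 0.06 in TKO (limma adjusted p = 2.783e-05) and 0.40 ± 0.06 in DKO (limma adjusted p = 0.00124). Rplp1 and Rplp2, which pair on it, rose by 0.60 each in TKO. In DKO the changes of Rplp1 and Rplp2 were 0.06 and 0.15 (limma adjusted p = 0.476 and 0.0588).

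The proteins of the 5S particle went in opposite directions. Rpl5 and Rpl11 carry the 5S rRNA into the large subunit, and in their free form bind MDM2 and so stabilise p53. Rpl5 was at 1289, 1220 and 1262 RPKM in WT, 1303, 1517 and 1307 in DKO and 799, 1003 and 912 in TKO. All TKO libraries were below all others of the set, and Rpl5 fell by 0.48 on the log2 scale against WT (limma adjusted p = 0.00133). Rpl11 was at 219, 244 and 226 RPKM in WT, 232, 226 and 233 in DKO and 366, 369 and 329 in TKO. It rose by 0.62 ± 0.06 in TKO (limma adjusted p = 4.196e-05), with no overlap of TKO with the other groups. Of 7 tested genes of the p53 arm that senses these proteins, 3 rose and 2 fell in TKO, which is near the share of all genes (31.2% and 20.1%). Cdkn1a, a cell cycle inhibitor and p53 target, rose by 1.12 from 0.757 to 2.81 RPKM, while Mdm4, a p53 inhibitor, fell by 0.74 on the log2 scale from 1663 to 1008 RPKM and Bax, a promoter of cell death, by 0.99 from 27.7 to 13.5 RPKM.

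Of 9 small-subunit proteins listed along the path of the mRNA, 6 rose and 1 fell in TKO (66.7% and 11.1%). Among all tested members these shares were 75.3% and 6.17%. Rps3, at the entry, was at 26.2, 29.2 and 25.4 RPKM in WT, 37.8, 35.9 and 37.6 in DKO and 47.5, 56.1 and 46.9 in TKO. It rose by 0.87 ± 0.09 in TKO and by 0.45 ± 0.09 in DKO (limma adjusted p = 3.557e-05 and 0.00389). Rps28, at the exit, was at 199, 214 and 221 RPKM in WT, 190, 169 and 132 in DKO and 168, 159 and 145 in TKO, and fell by 0.43 on the log2 scale in TKO (limma adjusted p = 0.0127). Of 10 large-subunit proteins listed around the exit of the nascent peptide, 7 rose and 1 fell (70% and 10%), again beside 75.3% and 6.17% of all tested members. The lower one was Rpl17, at 518, 538 and 531 RPKM in WT and 482, 433 and 461 in TKO, which fell by 0.21 on the log2 scale (limma adjusted p = 0.0188). That call was lost without TKO replicate 2 (adjusted p = 0.0519), WT replicate 2 (0.0621) or WT replicate 3 (0.0575). The call of Rpl38, of the same list, was lost without TKO replicate 3 (0.0740) or WT replicate 1 (0.0900).

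A list of 9 members was made whose human counterparts are mutated in Diamond-Blackfan anaemia, an inherited failure of red cell formation. It may leave out other such members. Of these 9, 7 rose and 1, Rpl5, fell in TKO, beside 75.3% and 6.17% of all tested members. Rps27a, made as a fusion with ubiquitin, rose by 0.54 (limma adjusted p = 1.061e-04). Of the 4 members on the X chromosome 2 rose: Rpl10, which joins the large subunit late, by 0.45 and Rps4x, a small-subunit protein, by 0.34. The other 15 tested members were not called in TKO, with changes from -0.16 to 0.55. Rps6, the target of S6 kinase, was among them, at 109, 105 and 93.8 RPKM in WT and 102, 129 and 113 in TKO, a change of 0.16 ± 0.09 (limma adjusted p = 0.180). Among the named members, leaving out 1 library added a call in Rpl39, given with its paralog below, and in 4 others. Rps13 was called without TKO replicate 1 (0.60, adjusted p = 0.0302) or WT replicate 1 (0.58, 0.0443), and Rps23 without TKO replicate 3 (0.53, 0.0132). Rpl36a was called without TKO replicate 1 (-0.42, 0.00932) and Rps4l without TKO replicate 2 (-0.26, 0.0446). Members not named gained calls as well: without TKO replicate 2, 69 were called, of which 65 were also called with all libraries.

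**Figure D2:**
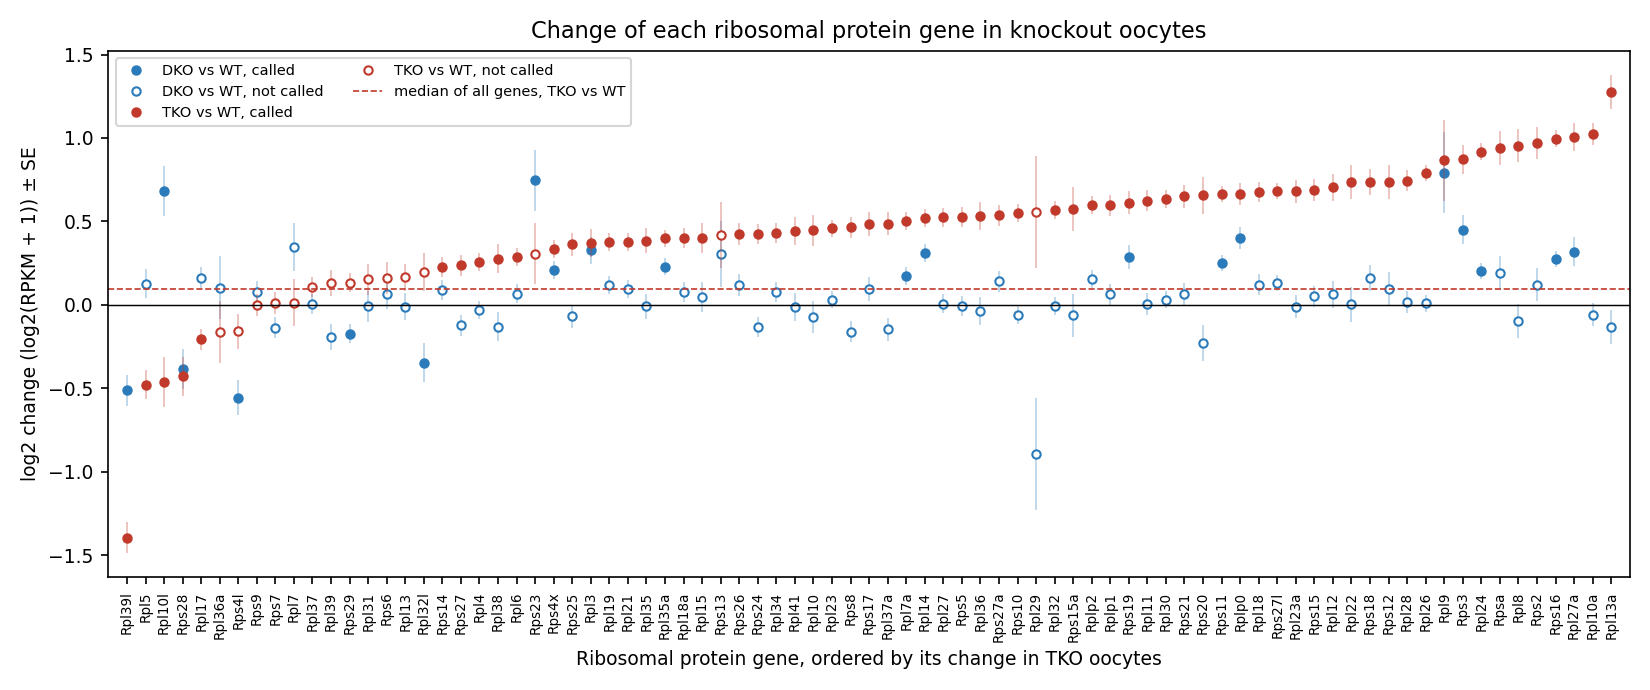
Log2 change of log2(RPKM + 1) with its standard error (vertical axis) of each tested member in DKO against WT (blue) and TKO against WT (red), with members in the order of their change in TKO; filled points were called by limma, and the dashed line is the median of all genes in TKO. Most red points lie above that line at 0.09, Rpl39l is lowest at -1.40, and most blue points lie near 0.

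Of the 4 restricted paralogs tested, 1 rose and 2 fell in TKO, beside 61 and 5 of all 81 members. Rpl39 and Rpl39l encode nearly the same short protein at the wall of the peptide exit tunnel, Rpl39 on the X chromosome and Rpl39l, the copy of male germ cells, on chromosome 16. Their coding sequences, from GENCODE M21 on GRCm38, are shown because the measurements must tell them apart; capitals mark the bases that differ.
Rpl39: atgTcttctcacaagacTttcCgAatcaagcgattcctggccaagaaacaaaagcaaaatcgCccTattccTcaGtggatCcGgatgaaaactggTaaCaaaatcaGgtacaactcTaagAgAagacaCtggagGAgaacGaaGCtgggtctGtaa
Rpl39l: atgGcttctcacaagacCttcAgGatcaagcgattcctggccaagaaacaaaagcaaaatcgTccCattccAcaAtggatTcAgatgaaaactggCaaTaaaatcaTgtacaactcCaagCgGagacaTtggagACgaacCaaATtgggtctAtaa
They differ at 23 of 156 bases (85.3% identity), and the longest run they share is 38 bases. The 100 bases before the annotated 5′ ends differ in the ETS-family letters, which are in capitals: none in Rpl39 and 1 match in Rpl39l. The difference is limited to this stretch. Within the longer promoter window counted above, on both strands, Rpl39 and Rpl39l each held a match to these letters.
Rpl39, chrX:37085223-37085322, minus strand: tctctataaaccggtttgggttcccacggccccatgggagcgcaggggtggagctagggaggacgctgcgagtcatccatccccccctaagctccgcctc
Rpl39l, chr16:10170097-10170196, plus strand: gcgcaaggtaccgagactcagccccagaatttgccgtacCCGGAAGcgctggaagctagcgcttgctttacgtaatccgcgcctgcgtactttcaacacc

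Rpl39l fell in both knockouts while most members rose or were not called. It was at 353, 378 and 392.3 RPKM in WT, 277, 259 and 251 in DKO and 127, 164 and 136 in TKO, and no group overlapped another. The change was -0.51 ± 0.09 in DKO (limma adjusted p = 0.0025) and -1.40 ± 0.09 in TKO (limma adjusted p = 2.567e-06). Rpl39 was at 959, 983 and 1049 RPKM in WT, 863, 938 and 822 in DKO and 1180, 982 and 1121 in TKO. It was not called in TKO (0.13 ± 0.08, limma adjusted p = 0.183), except without TKO replicate 2 (0.21, adjusted p = 0.0321). In the first oocyte set Rpl39l was at 316 and 367 RPKM in PRC1-WT and at 260 and 261 in PRC1-CD, a change of -0.39 that was not called (limma adjusted p = 0.126). As a share of the pair, Rpl39l made up 27.3% ± 0.42 (SD, n = 3) in WT, 23.1% ± 1.35 (SD, n = 3) in DKO and 11.6% ± 2.40 (SD, n = 3) in TKO, with no overlap between groups. The exact permutation test of 3 against 3 gave p = 0.1, the smallest it allows (0.2 after adjustment over 28 such tests, two-sided). In morulae Rpl39l was at 323 to 993 TPM (median 671) in wild type, 386 to 1087 (median 500) in matDKO and 286 to 696 (median 446) in matTKO, and the groups overlapped. Its change in matTKO was -0.60, which limma did not call (adjusted p = 0.193), and its mean share of the pair was 16.0, 13.4 and 12.1% in the 3 groups. The two-sided permutation test of the share in matTKO against wild type gave p = 0.0463 (0.2 adjusted over the 28 tests).

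**Figure D3:**
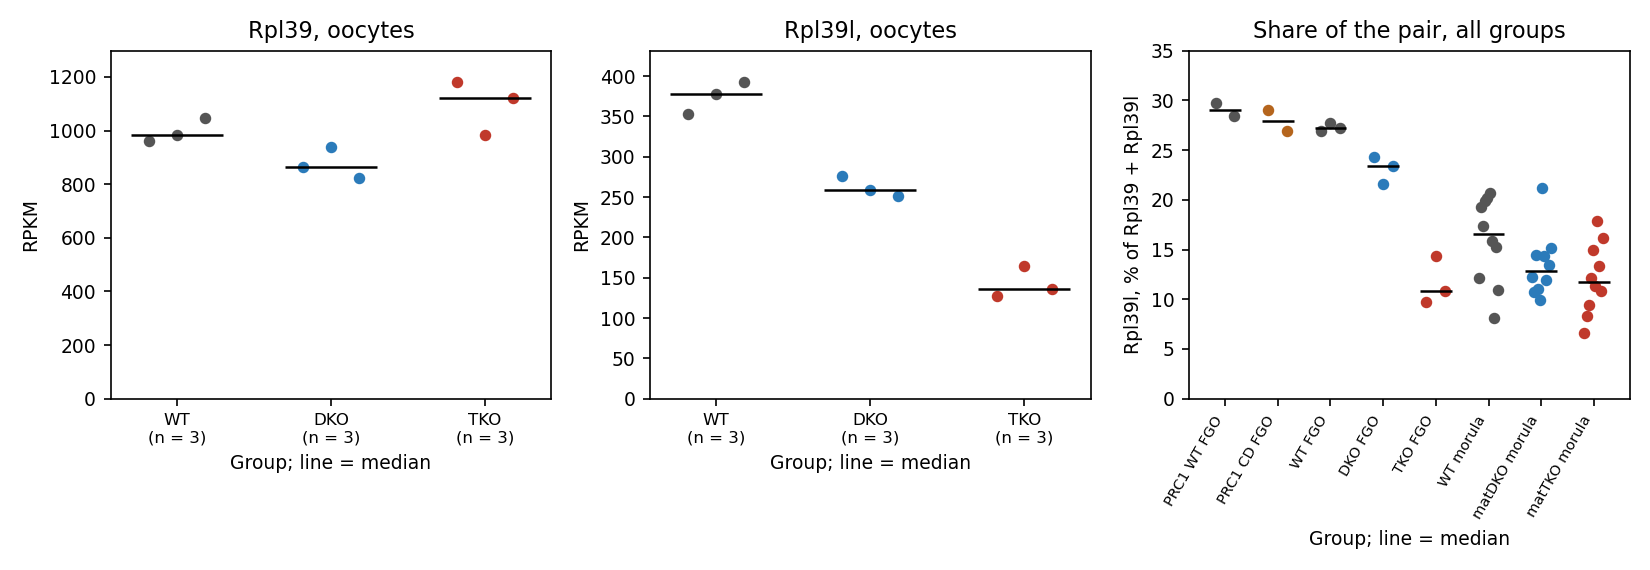
Levels of Rpl39 and of Rpl39l in the second oocyte set (RPKM, left and middle) and the percent of their sum that is Rpl39l in all 8 groups (right), 1 point per library, with lines at the medians. Rpl39l lies at 353 to 392.3 RPKM in WT and at 127 to 164 in TKO, while Rpl39 lies between 822 and 1180 RPKM in all 3 groups.

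Rpl10l, an intronless copy of the X-linked Rpl10, was low in oocytes: 2.26, 2.30 and 2.05 RPKM in WT, 4.10, 4.18 and 4.11 in DKO and 1.05, 2.0 and 1.05 in TKO. The 3 groups did not overlap, with DKO highest and TKO lowest. It rose by 0.68 in DKO (limma adjusted p = 0.00757) and was called lower in TKO (-0.46, limma adjusted p = 0.0265). The latter call was lost without TKO replicate 1 (adjusted p = 0.0805), TKO replicate 3 (0.0919), WT replicate 1 (0.0720) or WT replicate 2 (0.0739). Rps4l, a copy of Rps4x, was at 76.8, 82.9 and 78.3 RPKM in WT, 59.0, 48.8 and 53.5 in DKO and 71.1, 81.7 and 61.4 in TKO. In DKO it fell without overlap (-0.56 ± 0.11, limma adjusted p = 0.00341), while TKO overlapped WT (-0.16, limma adjusted p = 0.232). Rps27l, a copy of Rps27 known as a p53 target, was the more abundant of its pair, at 804, 828 and 824 RPKM against 240, 239 and 237 for Rps27 in WT. It rose by 0.68 in TKO to 1338, 1259 and 1343 RPKM (limma adjusted p = 4.735e-06).

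In DKO oocytes the members differed little from other genes. The count was 15 higher and 5 lower of 81, where 17.5% and 11.3% of all genes were higher and lower, and the median change was 0.06 against 0.03 for all genes. In 27 members all DKO libraries were above all WT libraries and in 12 all were below, against 28.2% and 22.1% of all genes. The total of 20 was 11 without WT replicate 1 and 11 without WT replicate 3, and 14 or 15 without any other single DKO or WT library. Of the genes called, Rps23, at the decoding centre, was at 71.0, 77.1 and 59.97 RPKM in WT and 135, 109 and 107 in DKO, and rose by 0.75 (limma adjusted p = 0.0123; 0.65 and adjusted p = 0.0538 without WT replicate 3). Rpl9, a large-subunit protein at low level, was at 6.44, 7.69 and 5.03 RPKM in WT and 12.7, 11.1 and 11.2 in DKO (0.79, limma adjusted p = 0.0349). The lower genes were, besides Rpl39l and Rps4l, Rps28 (-0.38), Rpl32l (-0.35, a copy of Rpl32 at under 3 RPKM) and Rps29 (-0.17). The calls of Rpl9, Rpl32l, Rps28, Rps29, Rps4x and Rpl27a were each lost without at least 3 of the 6 libraries taken singly, with adjusted p between 0.0555 and 0.177. Rpl29, a basic protein of the large subunit, was at 72.4, 48.0 and 44.3 RPKM in WT and 53.9, 20.2 and 20.96 in DKO, with replicate 1 the highest in both, and the groups overlapped (-0.89, limma adjusted p = 0.0729); without DKO replicate 1 it was called (-1.34, adjusted p = 0.00239).

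TKO and DKO oocytes differed by the loss of Mll2. This comparison shares its TKO and DKO libraries with those above. Members were called higher in 62 and lower in 4 of 81 cases, against 26.8% and 21.8% of all genes, and their median change was 0.41 against 0.04. All TKO libraries were above all DKO libraries in 66 members and below in 4, against 30.1% and 24.6% of all genes. Rpl29 changed most, from 53.9, 20.2 and 20.96 to 99.5, 71.5 and 69.8 RPKM (1.45 ± 0.34, limma adjusted p = 0.00551), and Rpl13a rose by 1.41 ± 0.10. Rps20, of the small-subunit head, rose by 0.89, from 25.1, 29.0 and 26.8 to 58.3, 51.6 and 42.9 RPKM. The 4 lower genes were Rpl10l (-1.14 ± 0.15), Rpl39l (-0.88 ± 0.09), Rpl5 (-0.61 ± 0.09) and Rpl17 (-0.37 ± 0.06). Among the named members, Rpl36a was called lower as well without TKO replicate 1 (-0.53, adjusted p = 0.00367), and Rps23 without TKO replicate 2 (-0.61, adjusted p = 0.0144). Without TKO replicate 2 the count over all 81 was 65 higher and 6 lower, so members not named gained calls too.

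**Figure D4:**
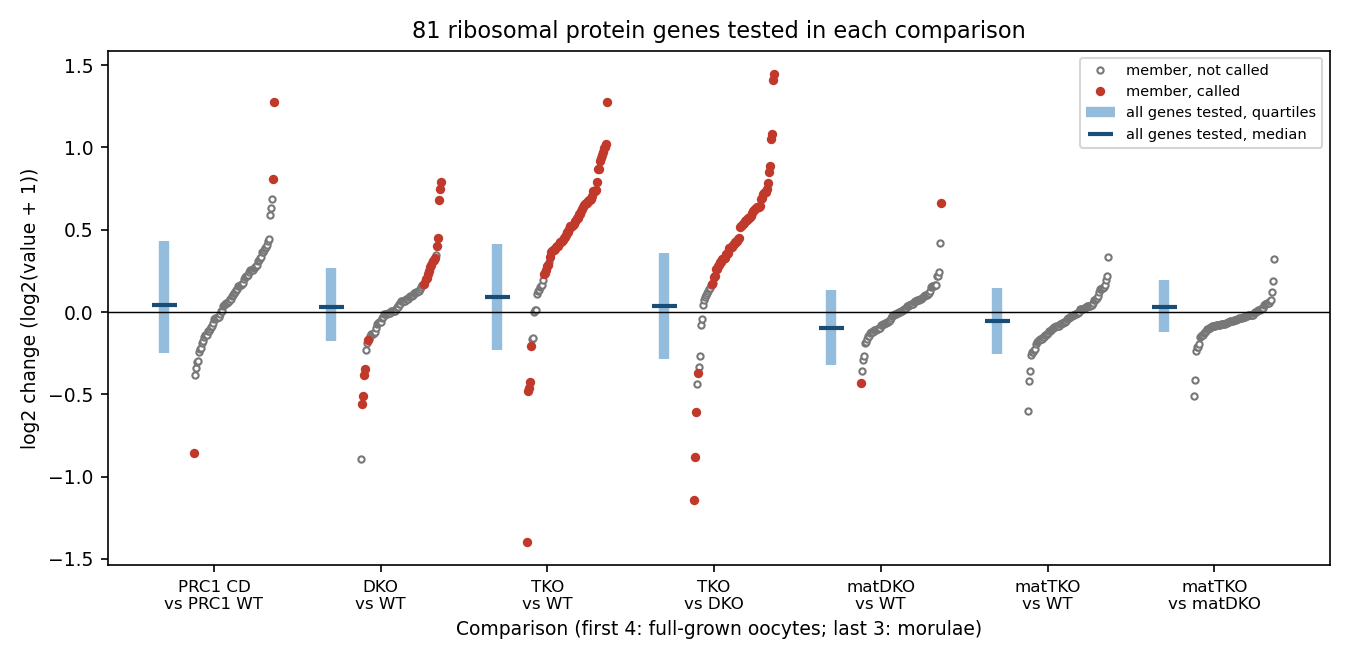
Log2 change of log2(value + 1) (vertical axis) of the 81 tested members in each of the 7 comparisons, 1 point per gene in rank order, filled where limma called it, beside a bar for the quartiles and median of all genes tested. The members centre on 0.49 in TKO against WT and on 0.41 in TKO against DKO, and in the 3 morula comparisons nearly all are unfilled.

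In PRC1-CD oocytes few members were called. The count was 2 higher and 1 lower of 81, against 17.3% and 5.61% of all 13376 genes, and 10 members had an unadjusted limma p below 0.05. The median change was 0.12 against 0.04 for all genes, and 0.16 for the 1157 genes other than members whose longest transcript is below 1000 bases. In 21 members both PRC1-CD libraries were above both PRC1-WT libraries and in 4 both were below, against 36.1% and 27.3% of all genes. Rps23 was at 50.3 and 81.3 RPKM in PRC1-WT and 131 and 187 in PRC1-CD (1.28 ± 0.27, limma adjusted p = 0.0143). Rpl10l was at 2.32 and 3.51 RPKM and at 6.01 and 5.53 (0.81 ± 0.21, limma adjusted p = 0.0315), and Rps4l at 53.6 and 83.6 and at 36.5 and 36.5 (-0.86 ± 0.22, limma adjusted p = 0.0321). In these 3 genes the groups did not overlap. The count of 3 was 0 without PRC1-CD replicate 1 or 2, 1 without PRC1-WT replicate 1 and 2 without PRC1-WT replicate 2, and the median was -0.04 without PRC1-CD replicate 2 or PRC1-WT replicate 1. It was also 0 without the filter on low values. Granulosa markers summed to 34.9 to 40.1 RPKM in PRC1-CD and 18.8 to 20.3 in PRC1-WT. Fshr was at 18.6 and 12.02 RPKM in PRC1-CD against 0.60 and 0.50, while Amh was at 0 to 0.05 and Foxl2 at most 0.10. Inha, also on the granulosa list, had a mean of 1.63 in PRC1-CD against 0.285 (limma adjusted p = 0.0354). Of the 4 granulosa markers tested, 2 were called higher and 0 lower. Dcn, the only tested gene of 7 stroma and blood markers, had a mean of 5.42 in PRC1-CD against 1 (limma adjusted p = 9.573e-04). The part of these markers in the member changes was not tested.

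In morulae hardly any member differed between the maternal genotypes. In matDKO 1 was higher and 1 lower of 81, against 0.329% and 1.41% of 13056 genes, with a median of 0.01 against -0.09 for all genes. In matTKO 0 were called, where 0.176% and 0.391% of all genes were higher and lower, and 5 had an unadjusted limma p below 0.05. The median was -0.04 against -0.06. Between matTKO and matDKO, which share those libraries, 0 were called (0.046% higher and 0.023% lower of all genes) and 1 had an unadjusted limma p below 0.05. The 10 libraries of matTKO stood wholly above or below those of wild type in 0 members (0.00766% above and 0.0613% below among all genes). Set against the libraries of matDKO, those of matTKO also stood wholly above or below in 0 members (0.0153% and 0% among all genes). The signs of the member medians depend on the scaling: in matDKO the median was -4.554e-04 after quantile normalization and 0.11 after median-ratio scaling, and in matTKO it was 0.02 after the latter. Rpl29 was at 470 to 582 TPM (median 526) in wild type, 595 to 1148 (median 826) in matDKO and 368 to 918 (median 523) in matTKO. It rose by 0.66 in matDKO (limma adjusted p = 0.00771), without overlap with wild type, which 0.023% of all genes showed in that direction and 0.13% in the other. Rps13, a small-subunit protein, was at 1143 to 1460 TPM (median 1316) in wild type and 809 to 1233 (median 980) in matDKO. It fell by 0.43 on the log2 scale with overlapping groups (limma adjusted p = 0.0365). Without replicates 8 and 9 of matDKO, which had the highest member shares, Rpl29 was called and Rps13 was not (-0.45, limma adjusted p = 0.0579). The call of Rps13 was also lost without the filter on low values and under median-ratio scaling. Rescaling to genes other than members, or without mitochondrial transcripts, lost it as well.

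The wider translation machinery was listed apart from the members. Of 14 other genes with TOP mRNAs, 11 rose and 0 fell in TKO (median 0.53), against the 31.2% and 20.1% of all genes given above. Eef1b2, which recharges the elongation factor eEF1A with GTP, rose by 1.07 from 45.9 to 97.6 RPKM (limma adjusted p = 1.2e-06), and Eef1a1, that factor, by 0.94 from 274 to 528 RPKM. Nap1l1, a histone chaperone, rose by 0.85. In DKO 4 of the 14 rose and 2 fell (17.5% and 11.3% of all genes), and in PRC1-CD 2 rose, near the 17.3% of all genes. Of 8 ribosomal proteins and close copies outside the naming rule, 7 rose and 1 fell in TKO: Rps3a1 rose by 0.95, Rpl22l1 by 0.86 and Rack1, the scaffold on the small-subunit head, by 0.70. Fau, made as a fusion with a ubiquitin-like protein, rose by 0.61, Rps27rt by 0.46 and Rpl36al by 0.33, while Rpl7l1 fell by 0.35 on the log2 scale. Of 52 tested factors of ribosome assembly in the nucleolus, 29 rose and 6 fell in TKO (55.8% and 11.5%, median 0.26), beside 31.2% and 20.1% of all genes. In DKO 8 rose and 3 fell (15.4% and 5.77%), against 17.5% and 11.3% of all genes. In PRC1-CD 4 rose and 0 fell (7.69% and 0%), against 17.3% and 5.61% of all genes. Rrp9, of the U3 snoRNP that processes pre-rRNA, rose by 1.11 from 8.21 to 18.9 RPKM. Gar1 and Nhp2, of the box H/ACA snoRNPs that guide pseudouridylation, rose by 0.96 from 6.29 to 13.1 RPKM and by 0.83 from 118 to 211 RPKM. Of 23 translation initiation factors, 9 rose and 2 fell in TKO, again beside 31.2% and 20.1% of all genes.

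Of 9 tested genes of the mTOR and LARP1 branch, 3 rose and 2 fell in TKO, near the 31.2% and 20.1% of all genes. Eif4ebp1, the repressor of cap-dependent initiation that mTOR inactivates, rose from 2.70 RPKM in WT to 29.3 in DKO and 15.9 in TKO (3.03 and 2.16; limma adjusted p = 1.83e-06 and 5.936e-06). Rps6kb1, the S6 kinase, fell by 0.40 on the log2 scale in TKO. In the morula comparisons 0 genes of these lists were called by limma, apart from Eif4a1, the initiation helicase, which fell by 0.44 on the log2 scale in matDKO.

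Copies and lengths limit the single-gene values. Of the 80 members with a coding sequence in the annotation, 63 had near-identical copies in at least 3 other annotated genes, 11 in 1 or 2 and 6 in 0. A copy is a transcript with at least 95% identity over at least 80% of that coding sequence. Rpl21 had copies in the most genes, 57. Reads of such members can be shared with pseudogenes, and SMART-Seq v4 libraries do not mark the strand. In TKO, 48 of the 63 members with most copies rose (median 0.47), 9 of the 11 (0.52) and 4 of the 5 tested without a copy (0.68). The longest transcript was below 1000 bases in 36 members, and among the 1144 other genes of that length 27.0% rose in TKO, with a median of 0.05.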

How the data were processed

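Values are as the authors deposited them: RPKM in both oocyte tables, while the morula table is titled RPKM but its columns sum to nearly the same total, so these deposited values were treated as TPM. Its unit is thus an inference. Builds mm10 and GRCm38 and the tools Trim Galore (0.6.4), STAR (2.7.3, 2.7.6), RSEM (1.3.1) and featureCounts (1.6.0) appear in the submitters' processing notes, with no word on the table each one made. From each oocyte table, 27 date-like names (symbols altered by a spreadsheet) were dropped. Genes with a group mean of at least 1 were tested on log2(value + 1) with limma 3.58.1 (R 4.3.3, trended variance), all groups of a table in 1 fit, for 7 comparisons, with Benjamini-Hochberg adjustment over all genes tested. Shares of a paralog pair were compared by permutation. Near-identical copies were sought with blastn.

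Members and gene lists were chosen with earlier results of these data known. Named genes were the 5 called members with the largest change in each direction of each comparison, the 3 highest and 3 lowest in each control group, the paralogs, stalk, 5S-particle and X-linked members with Rps6, Rpsa and Rps27a, up to 3 called genes of each other list, and the 8 genes outside the rule, of which 1 is not reported here; Rpl38, Rpl21 and a few others were named after their values were seen. Pseudocount, filter, scaling, replicate block, number of groups in the fit and left-out libraries were varied. The scripts were tested on simulated data.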

Additional observations from a re-analysis of the deposited data

Results flagged for a closer look

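In the morula set, 114 groups of 10 values were examined for a single library far from the other 9, and 15 had one. The rule flags about 1 in 20 groups of independent, normally distributed values. The members here varied together (median pairwise correlation 0.50 in wild type, 0.71 in matDKO and 0.42 in matTKO), and Rpl3l was near 0. That rate is therefore no baseline for the 15 flagged values. In wild-type morulae they were Rpl35 in replicate 10 (5178 TPM, nearest other library 3968), Rpl41 in replicate 9 (10375, nearest 8158), Rps16 in replicate 9 (2534, nearest 2178), Rps28 in replicate 4 (5032, nearest 3826) and Rpl3l in replicate 6 (0.76, nearest 0.09).

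In matTKO morulae they were Rpl9 (3517, nearest 2725), Rplp0 (2692, nearest 1872) and Rpl32l (102, nearest 68.8) in replicate 9, and Rplp2 (7928, nearest 5300), Rps13 (1772, nearest 1312) and Rps15a (183, nearest 138) in replicate 8. The others were Rps6 in replicate 5 (1454, nearest 1053) and Rpl3l in replicate 3 (0.40, nearest 0.15). In matDKO they were Rps6 in replicate 9 (1361, nearest 1045) and Rpl3l in replicate 8 (0.67, nearest 0.11).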

How the results depend on the processing

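The count of called members in TKO against WT stayed between 63 and 69 (64 to 69 with 1 library left out), and in TKO against DKO between 64 and 71 (65 to 71). With 1 library left out it ranged from 0 to 2 in PRC1-CD and from 11 to 15 in DKO. Without the filter on low values it was 0 in PRC1-CD and 1 in matDKO. In matDKO it was also 1 under median-ratio scaling, under rescaling to genes other than members, and under both settings chosen after seeing the data, leaving out replicates 8 and 9 and rescaling without mitochondrial transcripts. Quantile normalization left 1 member higher and 1 lower in PRC1-CD; it shifted the median of all genes there by -0.12 and the share of higher genes among all genes called from 75.5 to 51.1%. That share went from 60.8 to 51.3% in TKO against WT (51.1% by median-ratio scaling), from 60.8 to 47.3% in DKO, from 18.9 to 40.4% in matDKO (37.6% by median-ratio scaling) and from 31.1 to 43.8% in matTKO. With a replicate block the counts were 4 in PRC1-CD, 18 in DKO, 67 in TKO, 67 in TKO against DKO, 2 in matDKO and 0 in the other morula comparisons. Correlations of same-numbered oocyte libraries ran from -0.05 to 0.11, and the main fits took the numbers as pairs in no set. In morulae 13 of 30 same-numbered correlations were above 0.1 (median 0.07, range -0.17 to 0.57). Between different numbers 45 of 270 were (median 4.152e-04, range -0.35 to 0.45). Whether same-numbered morula libraries share a batch was not tested. Among named members the block added calls of Rpl29 in DKO (-0.89, adjusted p = 0.00605) and TKO (0.55, 0.0240) and of Rps23 in TKO against DKO (-0.44, 0.0253), and lost Rpl32l (0.0673) and Rps29 (0.0705) in DKO. Adding the 8 genes outside the rule moved the median member share of WT to 4.21%, of DKO to 4.26% and of TKO to 5.46%. Leaving mitochondrial transcripts out of the total moved that of wild-type morulae to 18.8%. Of the values of named genes under alternatives, 3139 stayed on their side of the threshold, 72 lost the call and 22 gained one. Of the 1088 values of called genes 0 changed sign, and of the 2145 of genes not called 120 did. The cause of these shifts was not tested. Read depth is unknown, so low members such as Rpl10l have no counting error attached.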

Other observations

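The order of the members by level was nearly the same in both sets of wild-type oocytes (Spearman 0.989 across 82 genes in 2 separately normalized tables) and less alike between WT oocytes and wild-type morulae (0.627), as a description across genes. In WT oocytes Rps29, of the small-subunit head, was highest at 1316 RPKM ± 48.7 (SD, n = 3), followed by Rpl5 at 1257 ± 34.7 and Rpl35 at 1226 ± 121. In wild-type morulae Rps29 at 7581 TPM ± 1241 and Rpl41 at 7542 ± 1196 (SD, n = 10) were highest. Rpl10l was at 2.20 RPKM ± 0.13 in WT oocytes and at 153 TPM ± 41.0 in wild-type morulae, in tables with different units that were not compared by a test. The 10 highest members held 35.9% of the member total in WT oocytes and 29.2% in wild-type morulae.

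Of 13 tested genes of RNA polymerase I and its initiation factors, 5 rose and 3 fell in TKO oocytes, against 31.2% and 20.1% of all genes. Ubtf, which opens rRNA genes for transcription, rose by 0.54 from 1.16 to 2.21 RPKM (limma adjusted p = 0.0292), and Polr1c, a subunit shared with RNA polymerase III, by 0.43 (limma adjusted p = 0.0428). In DKO 4 of the 13 rose and 1 fell, where 17.5% and 11.3% of all genes rose and fell.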
